A study of Arabidopsis thaliana with 9 samples.

Results

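Seedlings of Arabidopsis thaliana carrying the mutant allele aar2-2 were compared with seedlings carrying the mutant allele aar2-1, to ask which functions differ between the alleles. The comparison rests on 6 of the 9 messenger RNA libraries of the study, the 3 titled aar2-2 and the 3 titled aar2-1, and the 3 wild-type (WT) libraries are given as a common reference level. All seedlings were 14 days old and had been grown on 1/2 MS medium with 16 h of light and 8 h of darkness a day. The labels name the genotypes aar2-2, aar2-1 and wild type, but not the lesion of either allele, the accession or the hour of harvest, and they do not say whether replicates were separate cultures. P-values therefore measure the spread between these libraries, which may be technical. Levels are in CPM, which relates the reads of a locus to all reads counted in its library, and cover 22903 loci, of which 18838 had a mean of at least 1 CPM over the 9 libraries and were tested.

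AAR2 is known in yeast and humans as a chaperone of the large spliceosome protein PRP8, which it accompanies during assembly of the U5 small nuclear ribonucleoprotein. The circadian clock is a set of transcription factors that repress each other in sequence over the day, so that morning, afternoon and evening genes peak in turn. Sugar supply is sensed through trehalose 6-phosphate and the kinase SnRK1, which switches on starvation genes when carbon is short. Enzymes that loosen or build the cell wall are produced in families whose members respond to growth, light and mechanical stimulation.

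The aar2-2 libraries held 32393347 to 35267559 reads over the listed loci, the aar2-1 libraries 29164392 to 31305352 and the WT libraries 24471852 to 27716125, so depth was ordered by genotype. One read was worth between 0.0284 and 0.0409 CPM. Markers of green shoot tissue were abundant in every library: the 8 listed genes of photosynthesis, among them the Rubisco small subunit gene RBCS1A, summed to 53848 to 62434 CPM in aar2-2, 57855 to 61659 CPM in aar2-1 and 56398 to 67338 CPM in WT. Of the 7 root markers, 2 passed the minimum of 1 CPM, and the list summed to 5.22 to 8.56 CPM in aar2-2, 5.97 to 7.61 CPM in aar2-1 and 7.72 to 10.1 CPM in WT. Of the 6 seed storage markers none did, with summed levels of 0.378 to 1.84 CPM in aar2-2, 0.651 to 2.80 CPM in aar2-1 and 1.51 to 4.80 CPM in WT, and of the 5 flower markers 1 did, with 3.09 to 4.05 CPM in aar2-2, 3.68 to 4.73 CPM in aar2-1 and 1.55 to 2.27 CPM in WT. The share that differences in tissue makeup have in the results below was not tested.

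AAR2 itself (AT1G66510, chr1:24812793-24816620 in TAIR10.1, 13 introns) had 5.28, 4.36 and 4.11 CPM in aar2-2, 7.33, 5.49 and 5.30 CPM in aar2-1 and 7.64, 7.11 and 8.27 CPM in WT. All aar2-1 libraries were above all aar2-2 libraries, though the nearest were almost equal, and 1 aar2-1 library overlapped the WT range. The difference between the alleles did not pass the threshold (log2 fold change -0.33, SE 0.13, limma adjusted p = 0.263). Reads were summed over the gene, so a level says nothing of which part of the transcript is made.

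Between the alleles, 4 genes passed an adjusted p of 0.05 in limma, 0.0212% of the 18838 tested, of which 1 was higher (0.00531%) and 3 were lower (0.0159%) in aar2-2. MRD1 (AT1G53480, annotated as "mto 1 responding down 1") had 2.47, 2.38 and 2.18 CPM in aar2-2, against 24.9, 27.2 and 29.6 CPM in aar2-1 and 35.1, 30.2 and 35.9 CPM in WT. It fell by 3.08 on the log2(CPM + 1) scale in aar2-2 (SE 0.09, limma adjusted p = 2.18e-07), 8.44-fold lower on the scale with 1 CPM added, and the aar2-1 libraries lay just below the WT range. HEI10 (AT1G53490), a RING protein known for its part in meiotic crossovers, had 4.38, 4.01 and 3.40 CPM in aar2-2, 27.2, 28.7 and 31.4 CPM in aar2-1 and 35.96, 31.7 and 37.99 CPM in WT. It fell by 2.61 in aar2-2 (SE 0.10, limma adjusted p = 1.18e-06), 6.12-fold lower on the same scale. These neighbours lie on opposite strands at chr1:19963047-19964712 and chr1:19963267-19966952, and 73.8% of the exon bases of MRD1 overlap exons of HEI10. As strand use in counting is not given in the sources used here, their reads cannot be told apart.

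The gene that rose in aar2-2 was AT1G75945, which encodes an uncharacterized protein and lies at chr1:28515245-28515916. It had 9.11, 8.80 and 8.42 CPM in aar2-2, against 0.750, 0.480 and 0.383 CPM in aar2-1 and 0.163, 0.289 and 0.0363 CPM in WT, that is 295 to 303 reads in each aar2-2 library and 12 to 22 in each aar2-1 library. Its log2 fold change was 2.68 (SE 0.13, limma adjusted p = 7.93e-06), or 6.39-fold on the scale with 1 CPM added. AT4G36850, which encodes a PQ-loop repeat membrane protein, had 23.2, 25.3 and 28.2 CPM in aar2-2, 46.6, 44.1 and 51.7 CPM in aar2-1 and 29.7, 27.9 and 32.7 CPM in WT. Here 2 of 3 aar2-2 libraries lay below the WT range and all aar2-1 libraries above it, with a log2 fold change of -0.87 (SE 0.09, limma adjusted p = 0.0119). This last call was lost when aar2-2 replicate 2 was left out (adjusted p = 0.123), without aar2-1 replicate 1 (adjusted p = 0.0573), without WT replicate 1 (adjusted p = 0.051) and in a fit of the 6 mutant libraries alone (adjusted p = 0.0778). The other 3 calls held under all 18 alternatives run, with adjusted p of at most 0.00567.

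**Figure D1:**
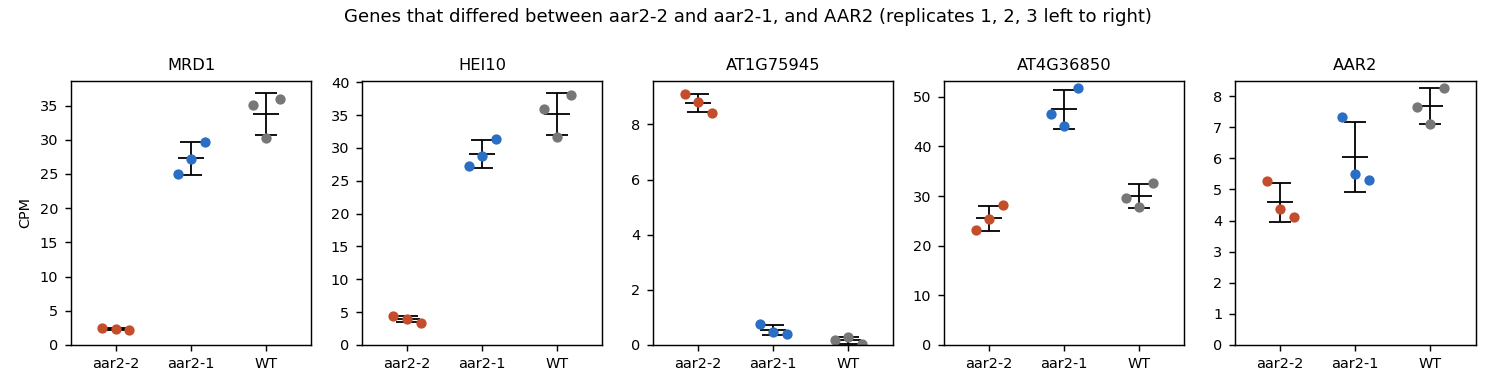
CPM of the 4 genes that differed between the alleles and of AAR2, for aar2-2 (left), aar2-1 (middle) and WT (right) in each panel, with 1 point per library and the mean and SD of 3 libraries as bars. MRD1 and HEI10 sit at 2.18 to 4.38 CPM in aar2-2 and at 24.9 CPM or more in aar2-1 and WT, while AT1G75945 is at 8.42 to 9.11 CPM in aar2-2 and below 1 CPM in aar2-1 and WT.

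MRD1, HEI10 and AT1G75945 lie on chromosome 1, as AAR2 does (chr1:24812793-24816620), at 4.85, 4.85 and 3.70 Mb from its start. Among the 5 tested genes on each side of MRD1, 5 of 10 had a limma p under 0.05, HEI10 included, against 16.0% of all tested genes, and 1 of 10 did around AT1G75945. The remaining neighbours of MRD1 differed by at most 0.63 on the log2 scale. One further locus stood out below the minimum level. AT1G27565 had 0.123, 0.0872 and 0.142 CPM in aar2-2, against 2.49, 2.67 and 2.14 CPM in aar2-1 and 0.0817, 0.253 and 0.0363 CPM in WT. It was among the 8 genes called by edgeR's quasi-likelihood test on recovered reads (log2 fold change -4.36, adjusted p = 0.00289), and it was chosen here after its values were seen.

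How many genes differed depended on the test. On reads recovered from the CPM steps, DESeq2 called 380 of 17574 genes (2.16%), 143 higher (0.814%) and 237 lower (1.35%) in aar2-2, while edgeR called 8 of 20611 (0.0388%), 3 higher (0.0146%) and 5 lower (0.0243%). The 380 included all 4 limma calls, and all 380 had an unadjusted limma p under 0.05 in the same direction. In 369 of them the aar2-2 and aar2-1 libraries did not overlap. By chromosome, DESeq2 called between 2.03% and 2.47% of the genes it tested. At an unadjusted limma p under 0.05, 3022 genes (16.0%) differed, 1992 higher (10.6%) and 1030 lower (5.47%) in aar2-2. Higher genes made up 65.9% of these with CPM as deposited and 47.4% after TMM scaling, when 7.19% of tested genes were higher and 7.98% lower, and the median log2 fold change over all genes was 0.04 as deposited and 0.01 after TMM scaling. With CPM as deposited, log2 fold changes were positive in 11423 and negative in 7415 of the 18838 genes. The 3 libraries of each allele did not overlap in 3743 genes (19.9%), with aar2-2 above in 2590 (13.7%) and below in 1153 (6.12%). The lists below are described against these shares, and none of their members passed the adjusted limma threshold with all 9 libraries.

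Among genes short of the threshold, those with the widest differences and libraries that did not overlap were named, 6 in each direction (limma p under 0.01, at least 5 CPM, a rule that 482 higher and 287 lower genes met, 2.56% and 1.52%). On the higher side, UGT73C1, a UDP-glucosyltransferase, had 8.52, 9.10 and 10.3 CPM in aar2-2, 3.65, 5.28 and 2.65 CPM in aar2-1 and 5.56, 5.41 and 5.33 CPM in WT, and so stood above WT in aar2-2 and below it in aar2-1 (log2 fold change 1.12, SE 0.17, limma adjusted p = 0.089). CYP707A2, an abscisic acid 8'-hydroxylase that breaks down this hormone, had 45.4, 41.6 and 39.7 CPM in aar2-2, against 24.8, 26.2 and 12.6 CPM in aar2-1 and 18.6, 20.8 and 15.9 CPM in WT (log2 fold change 1.03, SE 0.22, limma adjusted p = 0.153). RXF12, annotated as a family 10 glycosyl hydrolase with a carbohydrate-binding domain, had 16.1, 19.8 and 15.8 CPM in aar2-2, 10.7, 7.27 and 6.42 CPM in aar2-1 and 11.97, 9.42 and 9.94 CPM in WT. The transcription factors ERF5 and ORA47, which act in ethylene and jasmonate responses, followed. ERF5 had 15.6, 33.6 and 30.5 CPM in aar2-2, against 11.6, 9.40 and 9.77 CPM in aar2-1 and 42.01, 26.8 and 47.9 CPM in WT, and aar2-1 was the lowest of the 3 genotypes. ORA47 had 8.95, 5.75 and 6.04 CPM in aar2-2, 3.001, 3.53 and 1.82 CPM in aar2-1 and 12.7, 7.79 and 8.71 CPM in WT. The largest log2 fold change on this side, 1.29 (SE 0.34), belonged to AT2G15020, an uncharacterized gene with 24.6, 17.9 and 14.9 CPM in aar2-2, against 6.62, 12.7 and 3.99 CPM in aar2-1 and 48.1, 66.8 and 36.7 CPM in WT.

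On the lower side, DIN6 led with a log2 fold change of -1.99 and is described with the sugar genes. AT3G01345, an uncharacterized gene, had 10.1, 10.03 and 8.36 CPM in aar2-2, 31.1, 29.3 and 21.6 CPM in aar2-1 and 0.286, 3.28 and 0.254 CPM in WT, and both alleles were above WT. BXL2, annotated as beta-xylosidase 2, had 23.8, 31.4 and 36.7 CPM in aar2-2, against 53.3, 48.5 and 72.1 CPM in aar2-1 and 29.5, 29.8 and 35.7 CPM in WT (log2 fold change -0.90, SE 0.17, limma adjusted p = 0.136), and aar2-2 overlapped WT. SHV3, a glycosylphosphatidylinositol-anchored protein of the cell wall, had 85.9, 120.2 and 151 CPM in aar2-2, 207, 152 and 319 CPM in aar2-1 and 88.9, 98.3 and 99.6 CPM in WT. TTL3, a tetratricopeptide thioredoxin-like protein, had 34.4, 48.4 and 59.8 CPM in aar2-2, against 83.5, 61.8 and 132 CPM in aar2-1 and 44.1, 44.1 and 50.00 CPM in WT. In SHV3 and TTL3 replicate 3 of aar2-1 was the highest of its genotype and replicate 2 the lowest. AT5G63375 had 3.27, 3.34 and 3.63 CPM in aar2-2, 9.14, 6.07 and 12.9 CPM in aar2-1 and 2.17, 2.99 and 2.58 CPM in WT, but all of its exon bases overlap AT5G63370 on the other strand, so its reads cannot be assigned.

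Clock genes are given by the time of day at which they peak. Of 12 afternoon and evening-phased genes tested, 7 had a limma p under 0.05 with higher levels in aar2-2 and 0 with lower ones (background 10.6% and 5.47%). The median log2 fold change of the list was 0.38, against 0.04 over all genes. Of its values, 11 of 12 were positive, against 11423 of 18838 over all genes. Without overlap, aar2-2 was above in 4 of the 12 (33.3%, against 13.7% of all genes). By library, the list median of log2(CPM + 1) minus the WT mean was 0.08, 0.14 and -0.32 in aar2-2. It was -0.26, -0.52 and -0.30 in aar2-1, so aar2-2 replicate 3 lay within the aar2-1 range. FKF1, a blue-light receptor that targets repressors of flowering for degradation, had 21.6, 21.7 and 12.4 CPM in aar2-2, against 10.5, 9.60 and 7.63 CPM in aar2-1 and 27.5, 27.5 and 23.5 CPM in WT. All aar2-2 libraries lay above all aar2-1 libraries, and both alleles were below WT (log2 fold change 0.90, SE 0.19, limma adjusted p = 0.153). DESeq2 called it, with an adjusted p of 0.00104. PRR3, a pseudo-response regulator that stabilizes the clock protein TOC1, had 25.3, 23.8 and 21.6 CPM in aar2-2, 17.2, 16.1 and 16.8 CPM in aar2-1 and 20.7, 15.2 and 17.8 CPM in WT. Its aar2-2 libraries were above all others (log2 fold change 0.47, SE 0.11, limma adjusted p = 0.159, DESeq2 adjusted p = 0.0142). PRR5, a repressor of the morning genes, had 44.1, 45.3 and 25.1 CPM in aar2-2, against 27.2, 23.8 and 15.5 CPM in aar2-1 and 42.8, 34.9 and 32.3 CPM in WT. Replicate 3 was the lowest library in each mutant, so that the groups overlapped (log2 fold change 0.75, SE 0.24, limma adjusted p = 0.226).

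The other evening genes with p under 0.05 were GI, a clock protein that partners FKF1, ELF4 of the evening complex, and the RNA-binding proteins GRP7 and GRP8. GI had 40.8, 41.8 and 25.5 CPM in aar2-2, 31.8, 20.5 and 19.9 CPM in aar2-1 and 37.6, 44.4 and 35.7 CPM in WT. ELF4 had 26.5, 33.7 and 23.6 CPM in aar2-2, against 20.8, 22.8 and 19.3 CPM in aar2-1 and 32.5, 28.1 and 37.3 CPM in WT, with no overlap between the alleles. GRP7 had 1228, 1417 and 969 CPM in aar2-2, 1007, 725 and 905 CPM in aar2-1 and 1369, 1158 and 1458 CPM in WT. In each of these, replicate 2 was the highest aar2-2 library, and in 10 of the 12 genes replicate 3 was the lowest. TOC1 (log2 fold change 0.13), ELF3 (0.16), LUX (0.03) and BOA (-0.06), the other parts of the evening loop, had limma p from 0.166 to 0.788. The count of 7 was 2 without aar2-2 replicate 2, and 5 to 8 without any other library, and the median was 0.25 without aar2-2 replicate 2.

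Of 14 morning-phased genes, 0 were higher and 4 lower at a limma p under 0.05 (background 10.6% and 5.47%), with a median log2 fold change of 0.02. The list was split, with 8 positive and 6 negative values, from -0.47 to 0.49. Without overlap, aar2-2 was above in 2 and below in 4 (background 13.7% and 6.12%). LHY, the MYB factor that with CCA1 represses evening genes, had 71.7, 61.8 and 68.5 CPM in aar2-2, against 78.9, 93.2 and 80.1 CPM in aar2-1 and 95.4, 134 and 93.1 CPM in WT (log2 fold change -0.31, SE 0.13, limma adjusted p = 0.285). CCA1 had 51.6, 44.4 and 49.6 CPM in aar2-2, 57.5, 62.3 and 50.8 CPM in aar2-1 and 56.3, 91.1 and 56.9 CPM in WT, with overlap between the alleles. LNK2, a coactivator of clock genes, had 95.1, 82.3 and 85.04 CPM in aar2-2, against 126, 116 and 123 CPM in aar2-1 and 119.9, 184 and 107 CPM in WT (log2 fold change -0.47, SE 0.16, limma adjusted p = 0.236). RVE4, an activator of evening genes, had 61.4, 55.97 and 64.9 CPM in aar2-2, 65.6, 74.99 and 73.6 CPM in aar2-1 and 65.1, 72.8 and 65.97 CPM in WT. The count of 4 was 0 without aar2-2 replicate 2 and 2 without aar2-2 replicate 3 or aar2-1 replicate 2. Without aar2-2 replicate 3 or aar2-1 replicate 2, 2 members were also higher. In WT, replicate 2 held the highest LHY, CCA1 and LNK2 levels, and the list summed to 816 CPM there, against 602 to 625 CPM in the other WT libraries. No aar2-2 or aar2-1 library reached that sum. The median ranged from -0.09 to 0.09 when single libraries were left out. Among 14 regulators linked to the clock, 1 was higher and 2 lower at p under 0.05, or 21.4% in either direction, against 16.0% of all genes. These counts ranged from 0 to 2 and from 2 to 3 when single libraries were left out. PIF5, a growth-promoting transcription factor, had 75.9, 75.7 and 75.9 CPM in aar2-2, against 98.96, 86.1 and 94.8 CPM in aar2-1 and 90.02, 109 and 89.6 CPM in WT (log2 fold change -0.29, SE 0.08, limma adjusted p = 0.199). CHE, a repressor of CCA1, had 53.7, 66.9 and 75.9 CPM in aar2-2, 81.8, 79.1 and 103 CPM in aar2-1 and 65.7, 63.3 and 67.9 CPM in WT (log2 fold change -0.42, SE 0.13, limma adjusted p = 0.206). CDF2, a repressor of flowering, was the 1 higher at p under 0.05 (log2 fold change 0.25, SE 0.10, limma adjusted p = 0.281). The flowering genes CO and FT had log2 fold changes of 0.03 and 0.13.

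**Figure D2:**
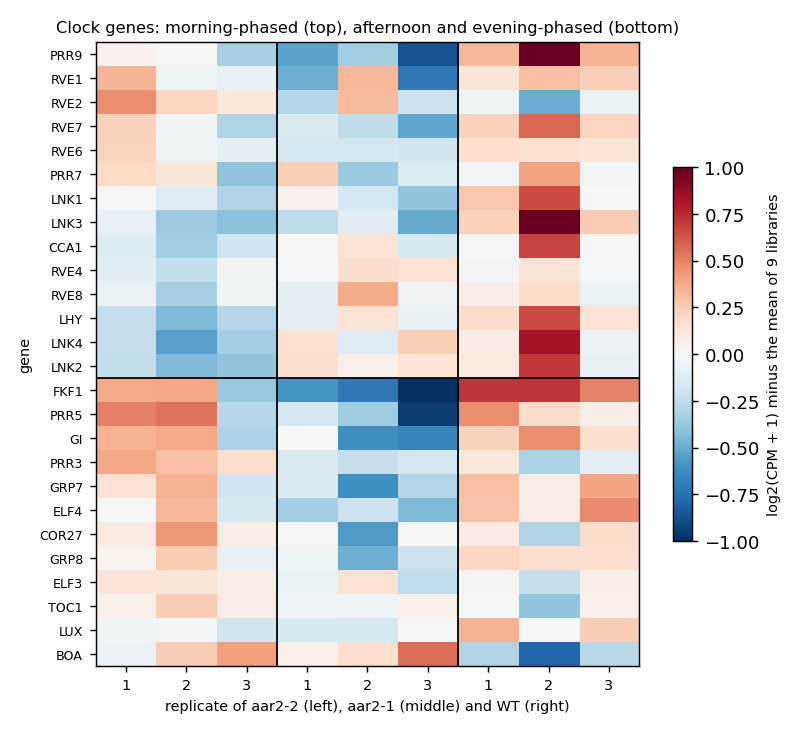
Heat map of clock genes (rows; 14 morning-phased above the line, 12 afternoon and evening-phased below) by library (columns: replicates 1 to 3 of aar2-2, aar2-1 and WT), as log2(CPM + 1) minus the mean of 9 libraries, with colours saturated at 1 and -1. FKF1 and PRR5 lie above the mean in aar2-2 replicates 1 and 2 and below it in all 3 aar2-1 libraries, and WT replicate 2 stands apart in morning genes such as LHY.

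Evening genes carry a short sequence, the evening element, to which the morning factors CCA1, LHY and the RVE proteins bind. Its core AATATCT (searched on either strand; AGATATT on the other strand) was present in the 300 bases before the annotated start of 10 of 12 evening genes (83.3%) and 6 of 14 morning genes (42.9%), against 11.8% of the 18747 tested genes with a window. Of the 7 evening genes with p under 0.05, GI had no match. Among the evening genes with a larger p, TOC1, LUX, BOA and COR27 also held the core and ELF3 did not. A match therefore did not set the genes with p under 0.05 apart. The windows of the 3 genes with the smallest p are printed 5′ to 3′ on the strand of the gene, from TAIR10.1, with the core in capitals. They are chr1:25508339-25508638 on the plus strand for FKF1, chr5:8358547-8358846 on the minus strand for PRR5 and chr5:24201416-24201715 on the minus strand for PRR3.
FKF1: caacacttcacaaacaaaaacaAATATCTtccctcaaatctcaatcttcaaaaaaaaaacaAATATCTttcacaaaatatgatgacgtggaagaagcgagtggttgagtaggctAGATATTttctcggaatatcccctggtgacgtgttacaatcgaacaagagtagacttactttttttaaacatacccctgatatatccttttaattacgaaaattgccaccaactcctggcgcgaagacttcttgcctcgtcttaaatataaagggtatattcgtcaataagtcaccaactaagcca
PRR5: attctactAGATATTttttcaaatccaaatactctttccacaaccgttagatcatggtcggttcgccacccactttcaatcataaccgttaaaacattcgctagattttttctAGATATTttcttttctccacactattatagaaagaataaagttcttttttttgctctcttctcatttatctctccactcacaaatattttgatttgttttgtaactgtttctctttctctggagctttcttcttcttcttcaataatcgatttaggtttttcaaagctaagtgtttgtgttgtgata
PRR3: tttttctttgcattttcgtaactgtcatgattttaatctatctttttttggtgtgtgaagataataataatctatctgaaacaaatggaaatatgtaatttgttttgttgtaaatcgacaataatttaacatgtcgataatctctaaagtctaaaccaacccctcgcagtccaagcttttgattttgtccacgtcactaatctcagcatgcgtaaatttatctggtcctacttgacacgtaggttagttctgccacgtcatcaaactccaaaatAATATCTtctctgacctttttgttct
FKF1 holds the core 3 times, PRR5 holds it 2 times in the reverse orientation, and PRR3 holds it 1 time, 20 bases before its start. A match describes the sequence and does not show binding.

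Genes that respond to carbon shortage tended to lower values in aar2-2. Of 12 sugar starvation and SnRK1 genes tested, 0 were higher and 6 lower at a limma p under 0.05 (background 10.6% and 5.47%). Of these 6, 4 had no overlap between the alleles, and aar2-2 was below without overlap in 6.12% of all genes. The median log2 fold change was -0.44. DIN6 (AT3G47340, also named ASN1), the asparagine synthetase that is induced in darkness, had 8.37, 13.8 and 15.4 CPM in aar2-2, against 58.7, 23.7 and 96.5 CPM in aar2-1 and 15.1, 21.2 and 15.4 CPM in WT. The aar2-2 libraries lay at the lower end of the WT range or below it, and all 3 aar2-1 libraries lay above it, over a 4.08-fold range (log2 fold change -1.99, SE 0.41, limma adjusted p = 0.152, DESeq2 adjusted p = 0.00285). AKINBETA1, a regulatory subunit of the SnRK1 complex, had 37.97, 45.4 and 40.7 CPM in aar2-2, 57.7, 54.9 and 68.3 CPM in aar2-1 and 49.6, 53.9 and 50.3 CPM in WT, which put aar2-2 below WT and aar2-1 above it (log2 fold change -0.53, SE 0.09, limma adjusted p = 0.118). DIN10, a raffinose synthase-like gene, had 333, 489 and 657 CPM in aar2-2, against 833, 624 and 1256 CPM in aar2-1 and 302, 271 and 353 CPM in WT. In DIN10 the highest aar2-2 and the lowest aar2-1 libraries crossed (log2 fold change -0.87, SE 0.27, limma adjusted p = 0.217). DIN1, DIN11 and BCAT-2, a branched-chain aminotransferase, completed the 6, with log2 fold changes of -0.82, -0.70 and -0.36. The catalytic SnRK1 subunits KIN10 (0.05) and KIN11 (0.04) and the genes DIN2, DIN3, DIN4 and DIN9 had limma p of 0.107 or more. Replicate 1 was the lowest aar2-2 library in 7 of the 12 genes (58.3%, against 35.1% of all genes). In aar2-1, replicate 2 was the lowest in 8 (66.7%, against 32.2%) and replicate 3 the highest in 7 (58.3%, against 32.4%). The count of 6 ranged from 5 to 7 when single libraries were left out, and the median was -0.28 without aar2-1 replicate 2. Without aar2-1 replicate 2, DIN6 (adjusted p = 0.00941) and AKINBETA1 (adjusted p = 0.0405) passed the threshold. So did 175 of all 18838 genes (0.929%), against 4 with all libraries.

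The trehalose phosphate synthase family showed the highest share of members with p under 0.05 of the 21 lists. Of 8 genes, 6 were lower and 1 higher in aar2-2 at a limma p under 0.05 (background 5.47% and 10.6%), with a median log2 fold change of -0.45. TPS1, the enzyme that makes trehalose 6-phosphate, had 52.9, 51.3 and 48.97 CPM in aar2-2, 53.5, 53.2 and 47.6 CPM in aar2-1 and 47.9, 51.6 and 47.8 CPM in WT, and its alleles overlapped (log2 fold change -0.01, SE 0.07). The class II members TPS5 to TPS11, whose proteins show little or no synthase activity and bind SnRK1, carried the differences. TPS11 had 103, 124 and 137 CPM in aar2-2, against 186, 197 and 233 CPM in aar2-1 and 82.2, 79.1 and 108 CPM in WT (log2 fold change -0.76, SE 0.14, limma adjusted p = 0.127). TPS6 had 27.6, 30.4 and 30.7 CPM in aar2-2, 38.4, 39.6 and 45.1 CPM in aar2-1 and 28.4, 29.2 and 29.5 CPM in WT (log2 fold change -0.46, SE 0.07, limma adjusted p = 0.11). In TPS6 the aar2-2 libraries spanned the WT range and aar2-1 stood above both. TPS8, TPS9 and TPS10 also did not overlap between the alleles, with log2 fold changes of -0.61, -0.44 and -0.48, and DESeq2 called these 3, TPS6 and TPS11. TPS7 had -0.30 with overlap. TPS5 ran the other way, with 26.7, 26.97 and 27.2 CPM in aar2-2, against 23.6, 22.3 and 18.8 CPM in aar2-1 and 24.1, 23.3 and 25.2 CPM in WT (log2 fold change 0.31, SE 0.08, limma adjusted p = 0.181). The counts were 5 or 6 lower and 1 higher without any single library. TPS6 passed the threshold without aar2-1 replicate 2 (limma adjusted p = 0.0482), as did 0.929% of all genes. Replicate 1 was the lowest aar2-2 library in 7 of the 8 genes (87.5%, against 35.1% of all genes). Replicate 3 was the highest in 6 of the 8 in each allele (75.0%, against 31.6% of all genes in aar2-2 and 32.4% in aar2-1).

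**Figure D3:**
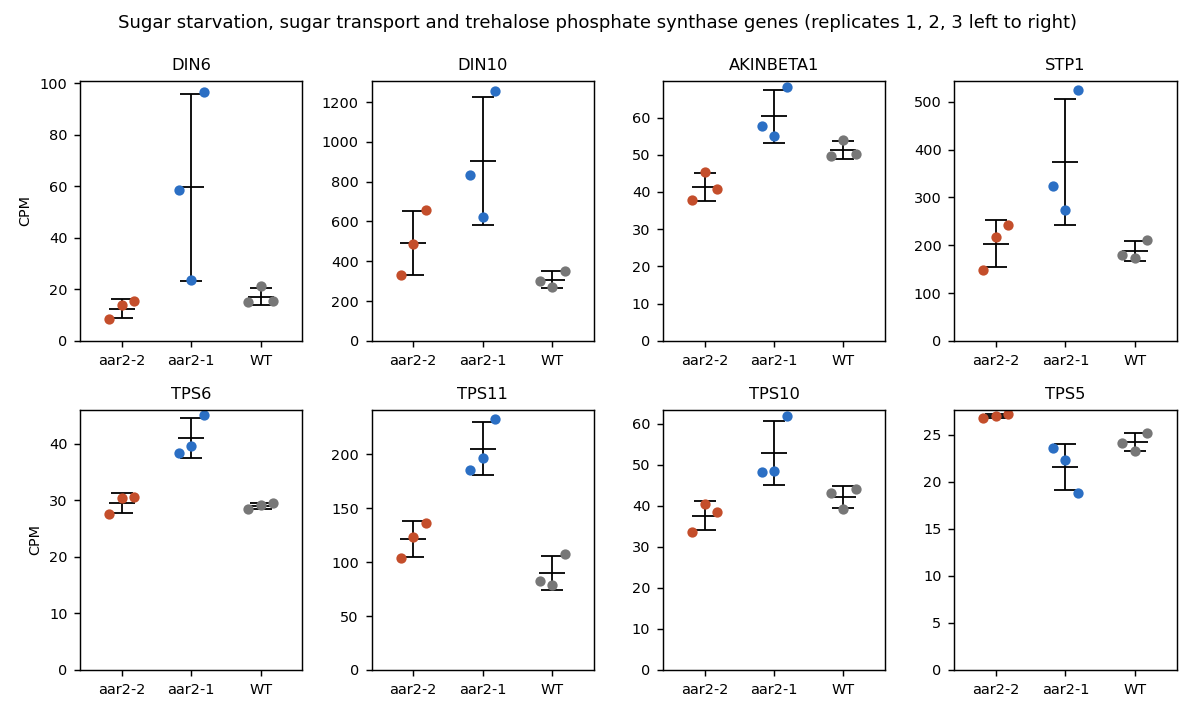
CPM of 8 sugar-related genes for aar2-2 (left), aar2-1 (middle) and WT (right), with 1 point per library and the mean and SD of 3 libraries as bars. DIN6 spans 23.7 to 96.5 CPM in aar2-1, while TPS6 keeps all 3 aar2-1 libraries at 38.4 to 45.1 CPM, above the aar2-2 libraries at 27.6 to 30.7 CPM.

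The G-box CACGTG, bound by bZIP and bHLH factors, which include those of the sugar starvation response, was found within 300 bases of the start of 2 of 12 starvation genes (16.7%), against 7.92% of tested genes. It reads the same on each strand. The starvation genes with a match were DIN6 and DIN11, and 136 of the 300 bases before DIN6 lie in annotated exons. Other lists ran from 0.0% (XTH genes and expansins among them) to 50.0% (morning-phased clock genes), with 35.0% for starch breakdown. TPS6 and FKF1 start 0.684 and 0.696 Mb from the start of AAR2.

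Of 21 sugar transporter genes, 3 were lower and 1 higher at p under 0.05, or 19.0% in either direction, against 16.0% of all genes. The median was -0.05, within a range of -0.10 to 0.03 when single libraries were left out. The lower ones were the monosaccharide importers STP1 and STP14 and the vacuolar exporter ERDL6. STP14 had 19.2, 19.1 and 20.9 CPM in aar2-2, 25.1, 27.02 and 29.99 CPM in aar2-1 and 17.9, 19.01 and 22.4 CPM in WT (log2 fold change -0.45, SE 0.10, limma adjusted p = 0.153). STP1 had 148, 218 and 243 CPM in aar2-2, against 325, 275 and 525 CPM in aar2-1 and 179.6, 174 and 211 CPM in WT, without overlap between the alleles and again with replicate 3 highest in each (log2 fold change -0.86, SE 0.23, limma adjusted p = 0.189). SWEET1, a glucose uniporter, had 53.6, 53.3 and 45.8 CPM in aar2-2, 45.5, 36.2 and 32.3 CPM in aar2-1 and 26.8, 27.4 and 27.6 CPM in WT, so that both alleles stood above WT (log2 fold change 0.42, SE 0.11, limma adjusted p = 0.185). The sucrose exporters SWEET11 (0.04) and SWEET12 (0.08) and the phloem loader SUC2 (-0.12) had p of 0.07 or more. In sucrose metabolism 2 of 11 genes were higher at p under 0.05 (18.2%, against 10.6% of all genes). They were the hexokinases HXK1 and HXK2, with log2 fold changes of 0.25 and 0.28. HXK1, which also acts as a glucose sensor, had 70.5, 70.9 and 73.9 CPM in aar2-2, against 65.8, 66.9 and 49.9 CPM in aar2-1 and 67.5, 62.1 and 63.2 CPM in WT.

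Starch breakdown genes had small differences. Of 20 tested, 17 had positive values, against 11423 of 18838 over all genes, and the median was 0.17 (0.14 after TMM scaling). At p under 0.05, 6 were higher, 5 of them with no overlap between the alleles, and 0 were lower (background 10.6% and 5.47%). Without overlap, aar2-2 was above in 6 of the 20 (30.0%, against 13.7% of all genes). PHS2, a cytosolic glucan phosphorylase, had 351, 371 and 351 CPM in aar2-2, 312, 269.9 and 256 CPM in aar2-1 and 361, 319 and 357 CPM in WT (log2 fold change 0.36, SE 0.08, limma adjusted p = 0.161). SEX4, a glucan phosphatase, had 76.6, 76.3 and 82.7 CPM in aar2-2, against 67.2, 66.1 and 66.5 CPM in aar2-1 and 69.96, 68.3 and 74.3 CPM in WT (log2 fold change 0.23, SE 0.06, limma adjusted p = 0.169). ISA3, a debranching enzyme, had 55.5, 62.5 and 59.6 CPM in aar2-2, 51.7, 48.1 and 48.1 CPM in aar2-1 and 65.3, 59.2 and 65.2 CPM in WT. In these 3 genes every aar2-1 library was below the WT range. The median was 0.10 without aar2-1 replicate 3, and 1 gene was lower at p under 0.05 without aar2-1 replicate 1 or aar2-2 replicate 3. With edgeR or DESeq2, 4 were higher and 1 lower at p under 0.05. Of 17 starch synthesis genes, only APL2, a subunit of ADP-glucose pyrophosphorylase, had p under 0.05 (log2 fold change 0.22, SE 0.09, limma adjusted p = 0.3), and the median was 0.04, equal to that of all genes. That is 5.88% of the list, against 16.0% of all genes. The count of 1 higher was 4 without aar2-1 replicate 2, 2 without aar2-1 replicate 1 and 0 without any of 6 other libraries.

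Cell wall genes gave a split picture. Of 90 tested members of 109 listed, the alleles did not overlap in 14 (15.6%), a smaller share than the 19.9% of all genes. At a limma p under 0.05, 16 were higher and 12 lower (background 10.6% and 5.47%), with a median log2 fold change of -0.02. These counts were 19 and 29 without aar2-1 replicate 2, but 9 and 4 without aar2-1 replicate 3, while over all genes they were 2209 and 1510, and 1103 and 646. The 22 tested xyloglucan endotransglucosylase/hydrolases (XTHs), which cut and rejoin wall xyloglucan, had a median of -0.41, with 18 negative values, against 7415 of 18838 over all genes. At p under 0.05, 4 were lower and 2 higher (background 5.47% and 10.6%). The alleles did not overlap in 4 of the 22 (18.2%, against 19.9% of all genes). The median was -0.24 without aar2-2 replicate 1, and 8 were lower at p under 0.05 with edgeR, as with DESeq2. XTH6 had 38.7, 31.9 and 34.7 CPM in aar2-2, against 45.6, 59.1 and 47.8 CPM in aar2-1 and 54.9, 67.9 and 48.7 CPM in WT, with no overlap between the alleles (log2 fold change -0.52, SE 0.13, limma adjusted p = 0.176). XTH27 had 185, 206 and 243 CPM in aar2-2, 259.9, 272 and 283 CPM in aar2-1 and 144, 146 and 160.0 CPM in WT (log2 fold change -0.37, SE 0.09, limma adjusted p = 0.176). DESeq2 called both. On the higher side, XTH32 had 17.97, 17.6 and 18.8 CPM in aar2-2, against 13.4, 16.1 and 12.6 CPM in aar2-1 and 20.3, 22.7 and 20.9 CPM in WT and XTH31 had 24.97, 21.8 and 20.8 CPM in aar2-2, 17.8, 16.9 and 9.42 CPM in aar2-1 and 23.8, 27.1 and 24.8 CPM in WT.

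Several XTHs varied widely within each allele. XTH23 had 3.86, 27.5 and 73.7 CPM in aar2-2, against 74.1, 18.2 and 236 CPM in aar2-1 and 7.23, 10.9 and 11.5 CPM in WT, a 19.1-fold range within aar2-2 and a 13.0-fold range within aar2-1. Its log2 fold change of -1.68 had a standard error of 0.99 (limma adjusted p = 0.417). XTH18 had 7.07, 38.8 and 108 CPM in aar2-2, 88.3, 25.7 and 259.9 CPM in aar2-1 and 6.78, 13.7 and 12.5 CPM in WT (log2 fold change -1.38, SE 0.93, limma adjusted p = 0.473). XTH22, the touch-induced gene TCH4, had 265, 602 and 962 CPM in aar2-2, against 941, 572 and 1558 CPM in aar2-1 and 184, 156 and 288 CPM in WT (log2 fold change -0.82, SE 0.46). In 17 of the 22 XTHs replicate 1 was the lowest aar2-2 library, in 15 replicate 2 was the lowest aar2-1 library, and in 16 replicate 3 was the highest. The count of lower XTHs was 13 without aar2-1 replicate 2 and 11 without aar2-2 replicate 3, but 2 without aar2-1 replicate 3 or aar2-2 replicate 1. Without aar2-1 replicate 2, 1 XTH passed the adjusted threshold as higher and 1 as lower, as did 0.584% and 0.345% of all genes. The touch genes TCH2 and TCH3, which encode calmodulin-like proteins, varied with the same libraries: TCH3 had 329.8, 544 and 805 CPM in aar2-2, 802, 566 and 1314 CPM in aar2-1 and 383, 286 and 454 CPM in WT. Of the 11 cold and touch genes tested, 0 had p under 0.05, against 16.0% of all genes.

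Expansins, which loosen the wall without cutting it, had 7 of 20 tested members higher and 2 lower at p under 0.05 (background 10.6% and 5.47%), with a median of 0.11. The 7 were 4 with TMM scaling, quantile normalization or DESeq2 and 2 with edgeR. Libraries of the alleles did not overlap in 1 of the 20 (5.0%, against 19.9% of all genes). EXPA10 had 75.9, 51.7 and 54.4 CPM in aar2-2, against 36.7, 47.2 and 24.6 CPM in aar2-1 and 52.2, 65.6 and 56.1 CPM in WT, the 1 member without overlap (log2 fold change 0.76, SE 0.21, limma adjusted p = 0.198), and DESeq2 called it. EXPA1 had 263, 161 and 129.9 CPM in aar2-2, 93.9, 159 and 58.9 CPM in aar2-1 and 289, 449 and 269.5 CPM in WT, and its aar2-1 replicate 2 lay between the lower aar2-2 libraries. EXPA3, EXPA4, EXPA11, EXPA15 and EXPB3 were the others on this side. The 2 lower members were the expansin-like genes EXLA1 and EXLA2. EXLA1 had 15.1, 45.7 and 81.1 CPM in aar2-2, against 101, 48.9 and 206 CPM in aar2-1 and 17.3, 17.2 and 21.9 CPM in WT (log2 fold change -1.36, SE 0.58). The count of 7 higher was 1 without aar2-1 replicate 3 or aar2-2 replicate 1, 2 without aar2-2 replicate 2 and 3 without aar2-1 replicate 1, and the count of 2 lower was 0 without any of 6 of the 9 libraries.

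Wall synthesis genes differed by small amounts. Of 17 genes of cellulose and xylan synthesis, 3 were lower and 0 higher: the primary wall synthases CESA3 and CESA6 and their microtubule linker CSI1. The 3 were 17.6% of the list, against 16.0% of all genes in either direction and 5.47% lower. The alleles did not overlap in 1 of the 17 (5.88%, against 19.9% of all genes). CESA3 had 292, 318 and 347 CPM in aar2-2, 369.7, 331 and 460.3 CPM in aar2-1 and 362, 347 and 372 CPM in WT (log2 fold change -0.27, SE 0.11). The count of 3 was 8 without aar2-1 replicate 2, 5 without aar2-2 replicate 3 and 0 to 2 without any other single library, and it was 6 with edgeR or DESeq2. Of 9 pectin genes, QUA2, a pectin methyltransferase, and PMR6, a pectate lyase-like protein, were lower without overlap (22.2% of the list, against 6.12% of all genes). QUA2 had 56.00, 57.3 and 60.9 CPM in aar2-2, against 73.6, 62.8 and 85.8 CPM in aar2-1 and 51.8, 44.9 and 51.1 CPM in WT (log2 fold change -0.33, SE 0.10, limma adjusted p = 0.217). The 13 lignin synthesis genes all had positive log2 fold changes, from 0.11 to 0.38 with a median of 0.22 (0.19 after TMM scaling). Of them, 7 were higher and 0 lower at p under 0.05 (background 10.6% and 5.47%), and over all genes 11423 of 18838 values were positive. 4CL2, a coumarate ligase, had 15.4, 15.7 and 15.9 CPM in aar2-2, 11.3, 14.6 and 11.8 CPM in aar2-1 and 16.3, 16.8 and 17.8 CPM in WT (log2 fold change 0.30, SE 0.09, limma adjusted p = 0.212). CCOAOMT1, a methyltransferase of the same pathway, had 211, 218 and 238 CPM in aar2-2, against 183, 203 and 182 CPM in aar2-1 and 233, 224 and 238 CPM in WT (log2 fold change 0.23, SE 0.07, limma adjusted p = 0.206). For 12 of the 13, replicate 3 was the lowest aar2-1 library, and the count was 6 to 9 without any single library. Without aar2-1 replicate 2, 4CL1 and 4CL2 passed the threshold, as did 0.929% of all genes. Among wall structural proteins, FLA9, an arabinogalactan protein, was the 1 of 9 (11.1%, against 16.0% of all genes) with p under 0.05 (log2 fold change -0.59, SE 0.26, limma adjusted p = 0.308). In all 9 the libraries of the alleles overlapped.

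**Figure D4:**
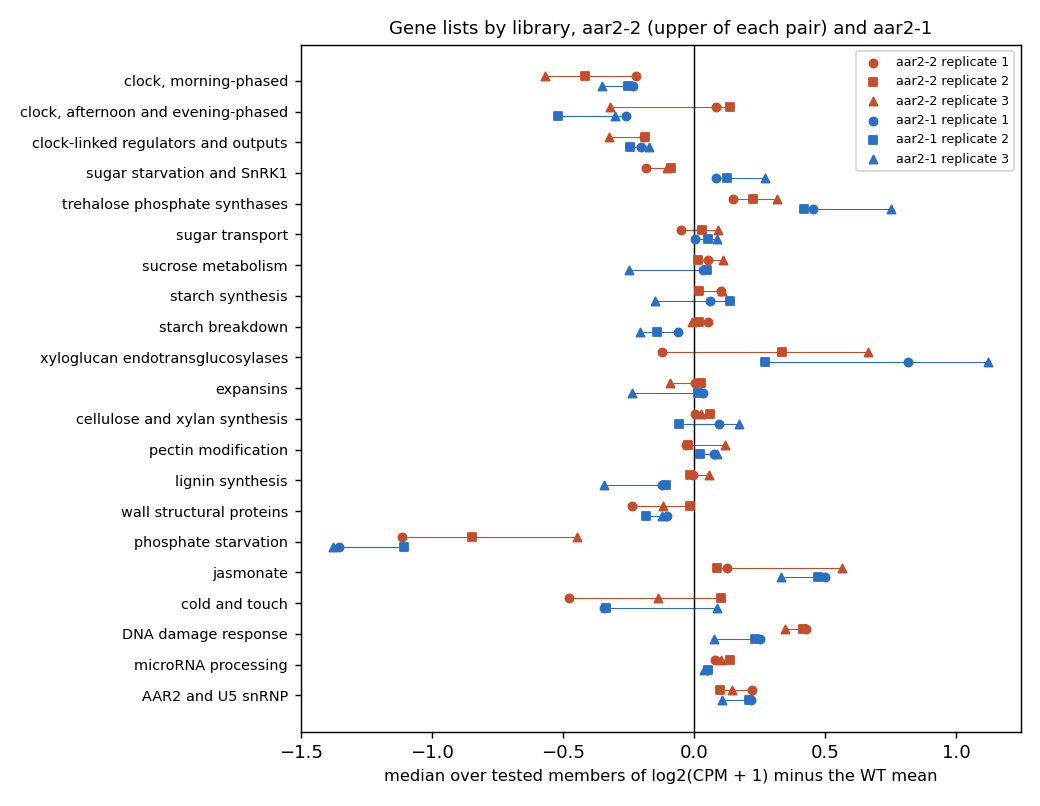
Median over the tested members of each of 21 gene lists (rows) of log2(CPM + 1) minus the WT mean (horizontal axis), for the 3 aar2-2 libraries (upper line of each pair) and the 3 aar2-1 libraries (lower line), with symbols for replicates. The trehalose phosphate synthase lines do not overlap (0.15 to 0.32 in aar2-2, 0.42 to 0.75 in aar2-1), whereas the XTH lines cross (-0.12 to 0.66 in aar2-2, 0.27 to 1.12 in aar2-1). In both lists replicate 1 is lowest and replicate 3 highest in aar2-2, and replicate 2 is lowest and replicate 3 highest in aar2-1.

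Outside these functions, the 18 phosphate starvation genes had a median of 0.27, with 17 positive values (over all genes, 11423 of 18838). At p under 0.05, 5 were higher and 0 lower (background 10.6% and 5.47%). The alleles did not overlap in 2 of the 18 (11.1%, against 19.9% of all genes). PPCK1, a kinase of phosphoenolpyruvate carboxylase, had 34.7, 31.9 and 28.7 CPM in aar2-2, 16.7, 26.2 and 15.8 CPM in aar2-1 and 62.6, 62.3 and 50.4 CPM in WT (log2 fold change 0.70, SE 0.17, limma adjusted p = 0.165). SPX1, a phosphate sensor, had 19.9, 37.4 and 50.5 CPM in aar2-2, against 14.3, 18.8 and 18.3 CPM in aar2-1 and 83.6, 58.2 and 65.8 CPM in WT, with aar2-2 replicate 1 close to the aar2-1 libraries (log2 fold change 0.94, SE 0.28, limma adjusted p = 0.205). Every aar2-2 and aar2-1 library of PPCK1, SPX1 and PAP17 was below WT. The count of 5 was 13 without aar2-2 replicate 1 and 3 without aar2-2 replicate 2 or 3. For the adjusted threshold, 1 member passed it as higher without aar2-1 replicate 2, and 1 without aar2-2 replicate 1. The median was 0.56 without aar2-2 replicate 1 and 0.09 without aar2-2 replicate 3. Of 23 jasmonate genes, 19 had negative values (median -0.16), against 7415 of 18838 over all genes. At p under 0.05, 1 was lower and 1 higher, or 8.70% of the list, against 16.0% of all genes. JAZ3, a repressor of the pathway, was the 1 lower, with 13.1, 12.99 and 16.3 CPM in aar2-2, 21.04, 22.05 and 18.2 CPM in aar2-1 and 13.04, 11.2 and 14.4 CPM in WT (log2 fold change -0.50, SE 0.12, limma adjusted p = 0.161). MYC2, its target factor, was the 1 higher (log2 fold change 0.46), but 98.5% of its exon bases overlap a gene on the other strand. In all 23 replicate 3 was the highest aar2-2 library, and without it 13 were lower at p under 0.05 and the median was -0.37, against -0.06 without aar2-2 replicate 1.

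The lists nearest to AAR2 and RNA processing had few members with p under 0.05 (background 16.0%). Of 9 genes, AAR2 and components of the U5 particle, AAR2 alone had p under 0.05. PRP8A, the client of AAR2, had 270.1, 247 and 256 CPM in aar2-2, against 269.8, 269 and 229 CPM in aar2-1 and 234, 227 and 235 CPM in WT (log2 fold change 0.01, SE 0.07), with a 95% interval of -0.15 to 0.18. Of 13 microRNA processing genes, PRL1, a component of a spliceosome-associated complex, was the 1 with p under 0.05 (log2 fold change 0.18, SE 0.06, limma adjusted p = 0.237). Of 8 DNA damage genes, all had positive values and TSO2, a ribonucleotide reductase subunit, was the 1 with p under 0.05 (log2 fold change 0.31, SE 0.09, limma adjusted p = 0.204). Over all genes, 11423 of 18838 values were positive.

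Replicate spread was set beside the differences. The median SD of log2(CPM + 1) over the tested genes was 0.098 in aar2-2, 0.122 in aar2-1 and 0.095 in WT. The median absolute log2 fold change between the alleles was 0.107, against a median standard error of 0.099 and a median half-width of the 95% interval of 0.221. At the median standard error, a gene needed a 1.71-fold difference for 1 more call, and 26 genes differed by at least 2-fold, 9 higher and 17 lower. Within aar2-2, replicate 1 held 46.2% of the squared deviations and replicate 2 16.3%. Within aar2-1, replicate 3 held 43.6%, replicate 2 37.8% and replicate 1 18.5%. Leaving out aar2-1 replicate 2 gave 175 calls (0.929%), 110 higher (0.584%) and 65 lower (0.345%), which included all 4 and shared 92 with the 380 of DESeq2. Leaving out any other library gave 3 to 13. With 3 libraries against 3, an exact permutation test of a single gene could not go below p = 0.1.

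**Figure D5:**
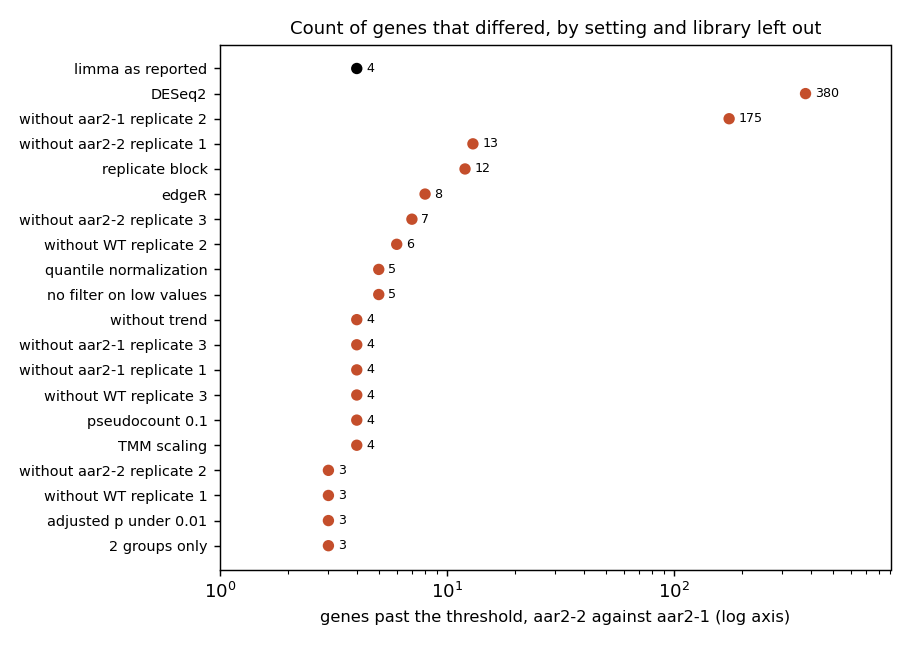
Number of genes past the threshold between aar2-2 and aar2-1 (horizontal log axis) under each setting and with each library left out (rows), with the reported limma count at the top. The count is 4 as reported, 380 with DESeq2, 175 without aar2-1 replicate 2, and at most 13 in every other row.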

How the data were processed

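Messenger RNA from 3 aar2-2, 3 aar2-1 and 3 WT seedling samples was measured, grouped by sample title. The authors deposited 1 value in CPM per locus and library, a unit read from the values, since the deposited tables' headers name only the sample. Within a library all low values were multiples of a single step, from which read numbers were recovered (100% whole within 0.05 reads, 99.9956% in aar2-2 replicate 3). Per the submitters' processing notes, featureCounts, DESeq2 and TAIR10 were used. The aligner, annotation release, strand setting and low-gene filter are not given in the sources used here. Library totals ranged from 24471852 to 35267559 reads.

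Genes averaging 1 CPM or more over the 9 libraries were tested with limma 3.58.1 (lmFit, eBayes with trend, R 4.3.3) on log2(CPM + 1), a scale that understates the change of low genes. One fit held all 9 libraries and 3 group means. Fold changes are aar2-2 minus aar2-1, and p-values were adjusted over all 18838 genes by the Benjamini-Hochberg method, with a threshold of 0.05. Alternatives were a replicate block, no filter, a pseudocount of 0.1, TMM scaling, quantile normalization, the 6 mutant libraries alone, no trend, an adjusted p under 0.01, edgeR 4.0.16, DESeq2 1.42.0, and leaving out each library. The procedure was tested on simulated data. Symbols, exons, coordinates and sequences came from TAIR10.1 (RefSeq), in which 22767 of 22903 codes matched.

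The genes named were AAR2, the called genes, 6 uncalled genes in each direction, up to 3 members in each direction per list by smallest p, and the 2 members with the widest range in 4 lists described for their spread. Other list members are named to complete a family and were picked with values known. The comparison, the 21 lists (327 genes) and the rules were chosen with earlier results of these data known. A list is described by its counts and median, without a test.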

Additional observations from a re-analysis of the deposited data

How the results depend on the processing

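The count of 4 genes between aar2-2 and aar2-1 was within 1.5 times of itself (3 to 6) in 13 of 19 alternatives. It was 380 with DESeq2 and 8 with edgeR. When single libraries were left out it ranged from 3 to 175, with 175 without aar2-1 replicate 2, 13 without aar2-2 replicate 1 and 7 without aar2-2 replicate 3. The cause of these differences was not tested. A replicate block gave 12 (3 higher, 9 lower), all 4 included and with FKF1, BXL2 and TPS11 among the others, and put 10 XTHs and 6 cellulose and xylan genes lower at p under 0.05, against 4 and 3 without it. The numbers were not taken to pair libraries, because deviations of same-numbered aar2-2 and aar2-1 libraries correlated at 0.19, -0.17 and 0.52, and not every library correlated best with its own number. Of 1314 values of 73 named genes under the 18 alternatives other than the stricter threshold, 1269 kept their direction and side of the threshold, 40 passed it only in the alternative (21 of them with DESeq2) and 4 lost it, all for AT4G36850, which (adjusted p = 0.0119) also misses an adjusted p of 0.01. The only one that changed sign was PS2, a phosphate starvation gene with a log2 fold change of 0.30, which ranged from -0.15 without aar2-2 replicate 3 to 0.81 without aar2-2 replicate 1. Of 378 list medians, 371 moved by less than the SD between libraries of that list, which lists with wide spread pass most easily. The other 7 were those of starch breakdown (0.12 with edgeR or DESeq2 and 0.10 without aar2-1 replicate 3), sucrose metabolism (-0.000713 without aar2-1 replicate 3 and 0.02 without aar2-2 replicate 3) and microRNA processing (0.03 with edgeR and 0.02 with DESeq2). The medians could not move under a replicate block, no filter, no trend, the 6 mutant libraries alone or without a WT library. That of phosphate starvation, which ranged from 0.09 to 0.56 when single libraries were left out, is among the 371. Depth limited loci under 1 CPM, which had few reads per library and were not tested in limma.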

Other observations

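UGT73C1 lies in a run of neighbouring UGT73C genes on chromosome 2, looked at here after its values were seen and without a test of the group. UGT73C6, a flavonol glycosyltransferase, had 31.3, 39.4 and 46.8 CPM in aar2-2, against 26.1, 29.0 and 25.0 CPM in aar2-1 and 26.8, 17.8 and 29.0 CPM in WT. DOGT1 (UGT73C5), which inactivates brassinosteroids and the toxin deoxynivalenol by adding glucose, had 70.2, 82.7 and 91.3 CPM in aar2-2, against 48.5, 56.8 and 37.7 CPM in aar2-1 and 78.0, 59.2 and 84.8 CPM in WT. The aar2-2 and aar2-1 libraries of these genes did not overlap, with log2 fold changes of 0.52 and 0.77 (limma adjusted p = 0.236 and 0.153), and DESeq2 called DOGT1 (adjusted p = 0.00236) but not UGT73C6. AT2G36770 and AT2G36780, between UGT73C1 and UGT73C6, had log2 fold changes of 0.24 and 0.37 with overlapping libraries, and UGT73C2 was under 1 CPM throughout. These genes are similar in sequence, so reads may be shared among them.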
